A study of Mus musculus with 13 samples.

Results

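The 10 genes described here carry peptides to the cell surface on MHC class I molecules: B2m, H2-K1, H2-D1, Tap1, Tap2, Tapbp, Psmb8, Psmb9, Psmb10 and Nlrc5. They were chosen by name, as the rows of the count table whose Ensembl gene identifier has one of these symbols in the mouse GENCODE annotation, and all 10 were found among 54532 genes. The libraries came from Yumm1.7 cells, a mouse cutaneous melanoma line labelled wild type for genotype, and each was read as CPM, its counts divided by the library total and scaled to 1000000. Total RNA was sequenced from cells given DMSO, ADAR1i-124 (10 μM for 12 h), an inhibitor of the RNA editing enzyme ADAR1, or 5-Aza-CdR (1 μM for 72 h), an inhibitor of DNA methylation. RNA immunoprecipitation (RIP) with J2, an antibody to double-stranded RNA, and with Z22, an antibody to Z-form RNA, was sequenced from cells given DMSO, ADAR1i-124, 5-Aza-CdR or both agents. A single IgG precipitate served as the antibody control, and the treatment of its cells is not stated in the sources used here. The study's supplement describes the combination as 5-Aza-CdR at 1 μM for 72 h followed by ADAR1i-124 at 10 μM for 12 h, which the labels of these libraries do not give. Every condition is 1 library, so no difference between treatments has a replicate check and none is tested. Intervals given with folds are 95% exact binomial intervals, which cover counting error only.

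The 12 libraries read here held between 8167960 and 34571822 counts. A further total RNA library, from cells given both agents, was set aside because its 1245894 counts followed the gene on the opposite strand (Spearman correlation across 16880 genes of 0.68 with the other gene's counts in DMSO and 0.23 with the gene's own). The Z22 library of DMSO cells stood apart. The noncoding RNA gene Gm42418 took 34.9% of its counts, against 10.6% to 18.9% in the other precipitated libraries, and the median log2 change of all genes from it to the other Z22 libraries was 0.81 to 1.06. Z22 changes against DMSO are therefore also given relative to the median log2 change of all genes. Of the melanocyte lineage markers only Mitf was above 1 CPM (9.68 to 33.1 CPM in the 12 libraries), and Tyr and Tyrp1 had no count in any library, so the melanocytic label does not show in these markers.

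MHC class I molecules are made of a heavy chain (here H2-K1 and H2-D1) and the shared light chain beta-2 microglobulin (B2m), and present peptides from proteins made in the cell to CD8 T cells. The proteasome cuts these proteins, and under interferon its catalytic subunits can be replaced by Psmb8, Psmb9 and Psmb10, which form the immunoproteasome. Tap1 and Tap2 form the transporter that moves peptides into the endoplasmic reticulum, tapasin (Tapbp) bridges the transporter to the heavy chain, and Nlrc5 is a transcriptional activator of class I genes. Interferon raises most of these genes through transcription factors that it activates, and tumour cells often express them at low levels.

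Most members lie together in the MHC region of chromosome 17 of GRCm38. Psmb9 (chr17:34181987-34187764, minus strand), Tap1 (chr17:34187553-34197225, plus strand), Psmb8 (chr17:34197721-34201454, plus strand) and Tap2 (chr17:34203527-34216321, plus strand) follow one another. The promoter windows of Tap1 and Psmb9 point in opposite directions and share 275 of their 300 bases. The B2m gene is on chromosome 2, and Psmb10 and Nlrc5 are on chromosome 8. RefSeq promoter windows of GRCm38.p6, from 250 bases before to 50 bases after the start site, were held for 8 of the 10 members and not for Tap2 and Nlrc5. They are shown for both class I chains, for the window that serves Tap1 and Psmb9, and for Psmb10, whose values went their own way below. Capitals mark letters that match any of 4 motifs, searched on both strands: the core of the interferon-stimulated response element (GAAA, any 2 bases, GAAA), the gamma-activated site GAS (TTCNNNGAA), the NF-kappaB consensus and the CCAAT box (CCAAT). The lines give B2m at chr2:122147437-122147736 (plus strand), H2-K1 at chr17:34000298-34000597 (minus), H2-D1 at chr17:35262844-35263143 (plus), Tap1 at chr17:34187306-34187605 (plus) and Psmb10 at chr8:105938343-105938642 (minus).
B2m: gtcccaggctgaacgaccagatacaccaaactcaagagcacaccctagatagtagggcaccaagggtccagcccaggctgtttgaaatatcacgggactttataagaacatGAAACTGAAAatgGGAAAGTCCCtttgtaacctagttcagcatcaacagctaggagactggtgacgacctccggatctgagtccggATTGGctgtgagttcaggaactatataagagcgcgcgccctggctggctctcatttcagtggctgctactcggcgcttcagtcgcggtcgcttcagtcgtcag
H2-K1: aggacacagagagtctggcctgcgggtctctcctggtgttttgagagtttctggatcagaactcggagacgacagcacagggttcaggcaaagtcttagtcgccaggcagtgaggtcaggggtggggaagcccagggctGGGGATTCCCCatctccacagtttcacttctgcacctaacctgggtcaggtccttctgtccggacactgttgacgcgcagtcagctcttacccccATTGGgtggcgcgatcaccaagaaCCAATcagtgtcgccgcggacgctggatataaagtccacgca
H2-D1: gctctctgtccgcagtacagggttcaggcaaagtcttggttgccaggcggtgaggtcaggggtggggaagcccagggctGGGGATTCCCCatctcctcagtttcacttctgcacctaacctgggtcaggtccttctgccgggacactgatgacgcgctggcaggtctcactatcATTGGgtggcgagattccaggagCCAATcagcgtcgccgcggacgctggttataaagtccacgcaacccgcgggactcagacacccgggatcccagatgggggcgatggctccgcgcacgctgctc
Tap1: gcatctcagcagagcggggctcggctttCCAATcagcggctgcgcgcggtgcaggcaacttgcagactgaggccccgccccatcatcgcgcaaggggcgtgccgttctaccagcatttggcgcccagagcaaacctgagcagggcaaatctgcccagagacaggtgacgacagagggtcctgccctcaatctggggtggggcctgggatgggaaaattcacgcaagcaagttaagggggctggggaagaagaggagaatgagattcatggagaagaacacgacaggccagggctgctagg
Psmb10: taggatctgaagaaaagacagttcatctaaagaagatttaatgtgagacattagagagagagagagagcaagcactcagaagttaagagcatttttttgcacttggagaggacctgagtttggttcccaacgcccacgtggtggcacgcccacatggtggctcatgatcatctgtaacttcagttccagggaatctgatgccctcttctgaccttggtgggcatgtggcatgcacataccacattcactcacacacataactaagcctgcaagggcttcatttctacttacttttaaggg

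The B2m window held an interferon-stimulated response element core starting at base -139 from the start site, an NF-kappaB match at -126 and a CCAAT box. The cores of this kind are found in 3.44% of all 32851 promoter windows. H2-K1 and H2-D1 shared an identical stretch of 47 bases. Each held 2 overlapping NF-kappaB matches, the first starting at -111 in H2-K1 and at -171 in H2-D1. That consensus occurs in 8.46% of all windows. The CCAAT box, in 37.4% of all windows, was found in 6 of the 8 members' windows. A GAS match, in 8.30% of all windows, was found in 1 of 8, that of Psmb8, starting at -97. The Psmb10 window matched none of the 4 motifs and held 3 CG dinucleotides, against 14 in B2m and H2-K1, 19 in H2-D1 and a median of 7 over all windows. Matches are letters in a window and not shown sites.

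In total RNA from DMSO cells the members spanned a wide range of levels per kilobase of exon. The light chain B2m was highest at 991 CPM per kb, followed by the heavy chains H2-D1 (105) and H2-K1 (82.7) and by Tapbp (39.2). Nlrc5 (11.4), Psmb10 (8.96), Tap1 (6.32) and Tap2 (3.70) were lower, and the immunoproteasome subunits Psmb8 (2.68) and Psmb9 (0.963) came last. With 1 library there is no replicate spread on this order. It also depends on exon length, taken as the union of all annotated exons (860 bases in B2m and 3660 in Psmb9). In CPM without regard to length, 7 of the 10 members had their lowest level in the ADAR1i-124 library of total RNA: H2-K1, H2-D1, Tap1, Tap2, Psmb8, Psmb9 and Psmb10. Tapbp and Nlrc5 were lowest in the J2 library of ADAR1i-124, and only B2m was lowest elsewhere, in Z22 of DMSO cells. How often all genes had their lowest level in these libraries was not counted.

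**Figure D1:**
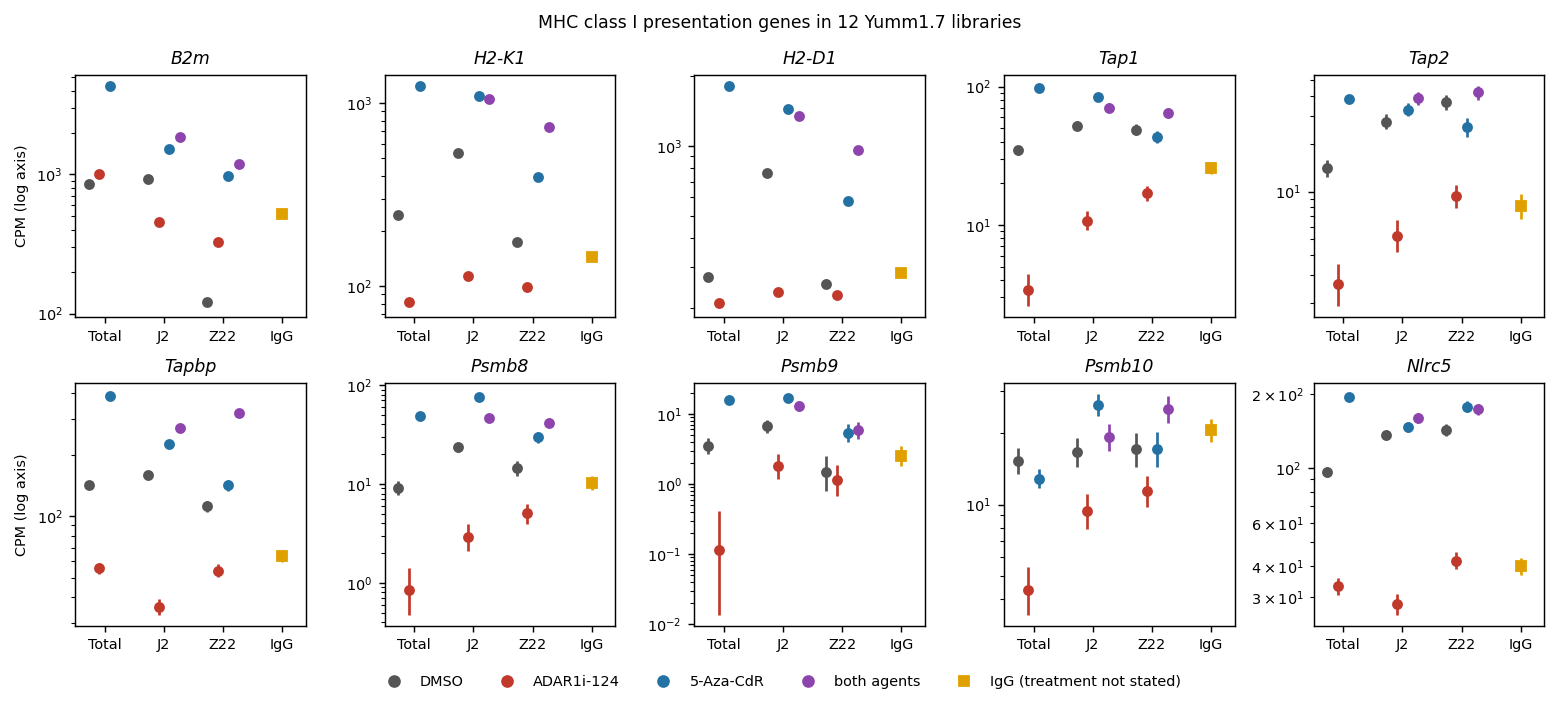
CPM of each of the 10 genes (log axis) in the total RNA, J2, Z22 and IgG libraries, 1 point per library, coloured by treatment, with exact 95% Poisson intervals that cover counting error only. The ADAR1i-124 points lie below the DMSO points of the same fraction for all genes in J2, and for all but B2m in total RNA and in Z22.

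The first comparison asked how the presentation genes stood after ADAR1i-124 alone. In total RNA 9 of the 10 members were lower than with DMSO and 8 were at least 2-fold lower, where 8.70% of the 13693 genes tested were at least 2-fold lower. The median log2 change of the members was -1.63 (exact interval of the median from -2.82 to -0.36), against -0.09 for all genes. Such an interval is taken over the 10 genes, which vary together, and covers neither counting error nor replicate spread. Counts of genes past 2-fold use CPM plus 0.5, which pulls low genes toward no change, and folds with intervals are plain ratios of CPM.

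The peptide transporter and the immunoproteasome showed the largest folds. Tap1 had 34.6 CPM with DMSO and 3.41 CPM with ADAR1i-124, 10.2-fold lower (7.78 to 13.5). Its partner Tap2 went from 14.0 to 2.61 CPM, 5.36-fold lower (3.89 to 7.52). Psmb8, the immunoproteasome subunit that replaces Psmb5, was 10.6-fold lower (6.25 to 19.5), at 9.05 and 0.851 CPM. Psmb9, which overlaps the more abundant Tap1 on the opposite strand, had 2 reads against 60, a ratio of 31.1 with an interval from 8.23 to 262. Psmb10 was 3.50-fold lower (2.70 to 4.57), at 15.3 and 4.37 CPM.

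The chains themselves were less alike. H2-K1 was 2.97-fold lower (2.79 to 3.15), with 243 CPM in DMSO and 81.9 CPM in ADAR1i-124. H2-D1 was only 1.28-fold lower (1.23 to 1.34), at 271 and 211 CPM. B2m went the other way and was 1.18-fold higher (1.16 to 1.21), at 853 and 1009 CPM. It was the only member that was not lower. Tapbp (142 and 55.6 CPM) was 2.55-fold lower and the activator Nlrc5 (96.6 and 33.2 CPM) was 2.91-fold lower.

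The same comparison in RNA precipitated with J2 gave lower values for all 10 members, 9 of them at least 2-fold, against 10.8% of all genes. The median log2 change was -2.18 (interval from -2.28 to -1.03), and that of all genes was 0.00. Psmb8 stood at 23.6 CPM with DMSO and 2.92 CPM with ADAR1i-124, 8.07-fold lower (5.83 to 11.5). H2-K1 (532 and 113 CPM), Tap1 (52.4 and 10.8 CPM), Tap2 (27.5 and 5.28 CPM), Tapbp (159 and 35.9 CPM) and Nlrc5 (136 and 28.1 CPM) were lower by 4.43-fold to 5.21-fold. H2-D1 was 3.27-fold lower (767 and 234 CPM), and B2m, higher in total RNA, was 2.04-fold lower here (926 and 454 CPM). Psmb10 differed least, by 1.78-fold (1.42 to 2.23).

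In Z22 precipitates 9 of 10 members were lower with ADAR1i-124 and 5 were at least 2-fold lower, against 5.13% of all genes. The median over all genes was +0.81 in this pair of libraries and that of the members was -0.93. Relative to all genes 8 members were at least 2-fold lower, against 17.5% of genes counted the same way. Nlrc5 (143 and 42.2 CPM) was 3.39-fold lower and Tap2 (36.3 and 9.34 CPM) 3.89-fold lower. B2m was the exception, with 121 CPM in DMSO and 329 CPM in ADAR1i-124, 2.73-fold higher (2.55 to 2.92) and 0.63 on the log2 scale above the shift of all genes. Psmb9 rested on 13 and 17 reads, and its interval for the fold spanned equality.

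**Figure D2:**
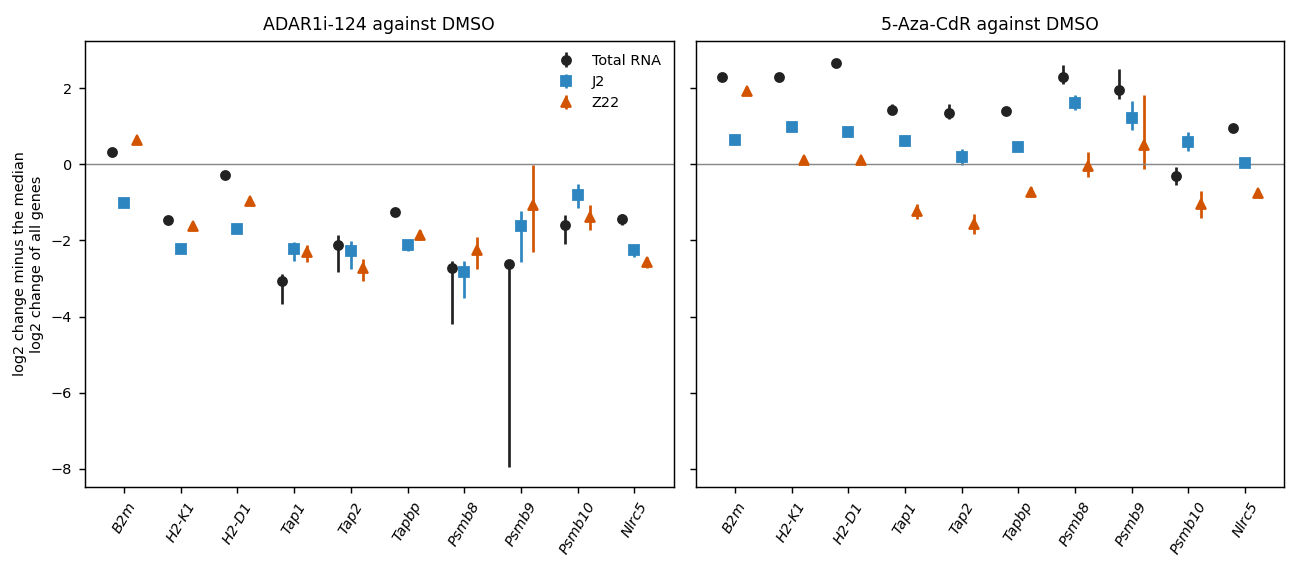
Log2 change of each gene with ADAR1i-124 (left) and with 5-Aza-CdR (right) against DMSO in total RNA, J2 and Z22, minus the median log2 change of all genes in the same pair of libraries. Points use CPM plus 0.5 and bars are 95% counting intervals of the plain ratio, so the bar of Psmb9 in total RNA, with 2 reads, reaches far down. All genes but B2m lie below 0 in all fractions on the left.

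After 5-Aza-CdR most members were higher in total RNA. Of the 10 members 9 were at least 2-fold higher than with the same DMSO library, against 17.0% of 14391 genes, and the median log2 change was 1.76 (interval from 1.01 to 2.35) against 0.06 for all genes. H2-D1 showed the largest fold, 6.64 (6.44 to 6.84), from 271 to 1801 CPM. H2-K1 reached 1235 CPM and B2m 4331 CPM, 5.08-fold above DMSO in each case. Psmb8 (9.05 and 48.2 CPM) was 5.33-fold higher and Psmb9 (3.53 and 15.8 CPM) 4.48-fold higher. Tap1, Tap2 and Tapbp were higher by 2.73-fold to 2.85-fold, and Nlrc5 by 2.02-fold (1.91 to 2.13). Nlrc5 lay at the 2-fold line and was not past it relative to all genes, where 8 members were. The share of all genes was not counted that way. Psmb10 alone was lower, at 15.3 and 12.9 CPM, a ratio of 0.842 (0.721 to 0.986).

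In J2 precipitates all 10 members were higher with 5-Aza-CdR, but by less. The median log2 change was 0.69, and 3 members were at least 2-fold higher, against 8.61% of all genes: H2-K1 (532 and 1087 CPM), Psmb8 (23.6 and 75.9 CPM) and Psmb9 (6.65 and 16.7 CPM). Relative to all genes 2 were, without H2-K1, a count not made for all genes. Psmb10 was higher here, at 16.7 and 26.2 CPM. Nlrc5 was 1.08-fold higher (136 and 147 CPM). The DMSO library of J2 already held more CPM of every member than that of total RNA, so the fractions start from different levels.

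In Z22 precipitates 5 members were at least 2-fold higher with 5-Aza-CdR, while 52.1% of all genes were. Relative to the median of all genes 1 member, B2m (121 and 967 CPM), was at least 2-fold higher, against 18.4% of genes, and 3, Tap1, Tap2 and Psmb10, were at least 2-fold lower, against 19.3% of genes. In plain CPM Tap1 (48.9 and 43.2) and Tap2 (36.3 and 25.5) were lower and Psmb10 was level (17.1 in each). The median of the members relative to all genes was -0.38.

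The cells given both agents can be set against each agent alone, in the precipitates only. Against ADAR1i-124 alone 9 members in J2 and all 10 in Z22 were at least 2-fold higher, where 14.3% and 9.91% of all genes were, with member medians of 2.61 and 2.05 on the log2 scale. H2-K1 was 9.24-fold higher in J2 (8.77 to 9.74), at 113 and 1046 CPM, and 7.48-fold higher in Z22, at 98.9 and 740 CPM. Psmb8 differed most, 15.96-fold in J2 (11.7 to 22.4) and 8.23-fold in Z22 (6.40 to 10.7). Tapbp stood 7.57-fold higher in J2 and 5.93-fold higher in Z22. Psmb10 differed least, by 2.05-fold in J2, where it was just short of 2-fold on CPM plus 0.5 and was not counted, and by 2.21-fold in Z22.

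Against 5-Aza-CdR alone the members of the J2 library were close to level. None of the 10 was 2-fold different in either direction, against 2.08% of all genes, and the median log2 change was -0.07 (interval from -0.44 to 0.26). B2m, Tap2, Tapbp and Nlrc5 were higher by 1.09-fold to 1.24-fold, and Psmb8 was 1.63-fold lower (1.47 to 1.81). In Z22 9 of 10 members were higher with both agents, with a median of 0.56 against -0.18 for all genes. Nlrc5 was the exception at 178 and 173 CPM, a ratio of 0.974 (0.907 to 1.05), and the interval of Psmb9 (0.722 to 1.67) also spanned equality. Tapbp, at 141 and 321 CPM, was 2.27-fold higher (2.12 to 2.43) and was the only member past 2-fold, against 9.40% of all genes past 2-fold in either direction. Relative to all genes H2-K1 was also past 2-fold, a count not made for all genes. H2-K1 (393 and 740 CPM) was 1.88-fold and H2-D1 (580 and 958 CPM) 1.65-fold higher.

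Against DMSO, the libraries of both agents had every member higher in CPM. In J2 the median log2 change was 0.79, and B2m (926 and 1872 CPM) was the only member at least 2-fold higher, against 8.21% of all genes. In Z22 6 members were at least 2-fold higher, where 43.4% of all genes were, and relative to the median of all genes 3 were, against 18.1%: B2m (121 and 1187 CPM), H2-K1 (174 and 740 CPM) and H2-D1 (255 and 958 CPM), the chains of the molecule itself. Tap1 (48.9 and 64.5 CPM), Tap2 (36.3 and 42.0 CPM), Nlrc5 (143 and 173 CPM) and Psmb10 (17.1 and 25.2 CPM) were below the shift of all genes in that pair, by 0.27 (Psmb10) to 0.61 (Tap2) on the log2 scale.

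The step from ADAR1i-124 can thus be read without and with 5-Aza-CdR. In J2 it had a median of -2.18 on the log2 scale without 5-Aza-CdR and -0.07 with it, and the second step was higher for all 10 members, by 0.36 (Psmb10) to 2.51 (Tap2). The corresponding difference over all genes was 0.06. In Z22 the medians were -0.93 and 0.56, and after taking off the difference over all genes (-0.996) the second step was higher for 9 of 10 members, B2m being the exception. The steps rest on 4 libraries per antibody without replicates, and the difference between them was not tested.

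**Figure D3:**
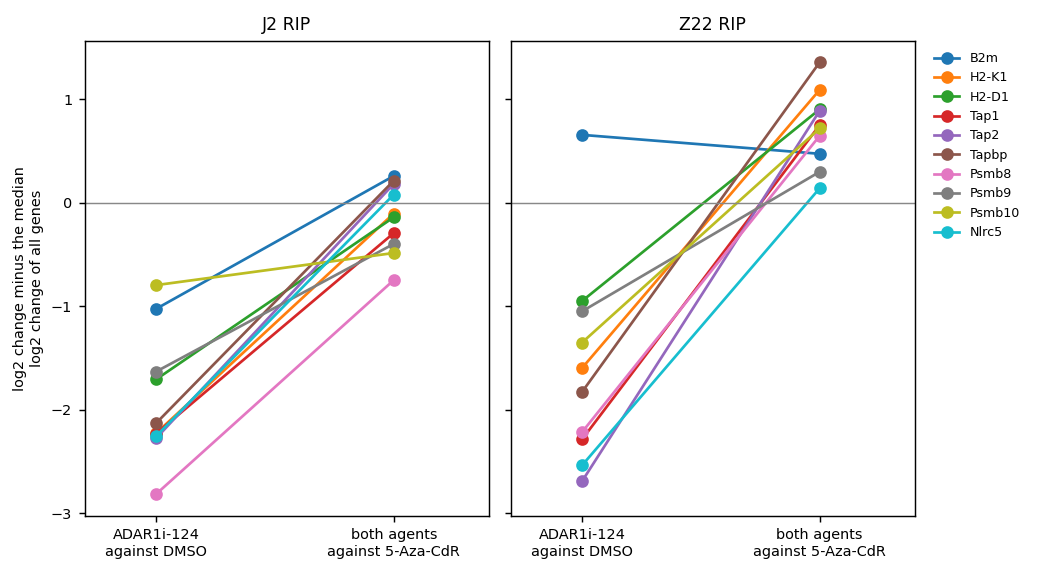
The ADAR1i-124 step of each of the 10 genes without 5-Aza-CdR (left point) and with it (right point), as the log2 change minus the median of all genes, in J2 and in Z22. The lines of all genes run upward except that of B2m in Z22, and in J2 the right points lie around 0.

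The exchange of proteasome subunits can be read as the share that an immunoproteasome subunit takes of itself plus its constitutive partner, both in CPM per kb. Lengths are the union of all annotated exons, 3381 bases for Psmb8 and 3660 for Psmb9, so the shares depend on that annotation. In plain CPM Psmb8 had 9.05 and Psmb5 41.7 in total RNA from DMSO cells. Psmb8 took 5.45% of Psmb8 plus Psmb5 in total RNA from DMSO cells, 0.522% with ADAR1i-124 and 32.01% with 5-Aza-CdR. In J2 the DMSO library had 16.7%, the ADAR1i-124 library 2.47%, the 5-Aza-CdR library 29.8% and the library of both agents 25.1%. In Z22 it was 11.5%, 3.55%, 20.03% and 19.8% in the same order. The 3 ADAR1i-124 libraries were thus lowest in their fraction, and the libraries with 5-Aza-CdR highest.

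Psmb9 took a small share of Psmb9 plus Psmb6 in all 12 libraries, from 0.0538% in total RNA with ADAR1i-124 to 7.84% in total RNA with 5-Aza-CdR. Psmb10 took 15.9% of Psmb10 plus Psmb7 in total RNA from DMSO cells, 7.93% with ADAR1i-124 and 22.2% with 5-Aza-CdR. The last of these shares was higher although Psmb10 itself was not, since Psmb7 went from 163 to 90.3 CPM. In the Z22 library of DMSO cells the Psmb10 share was 48.9%, with Psmb7 at 35.9 CPM there and at 110 to 143 CPM in the other Z22 libraries.

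**Figure D4:**
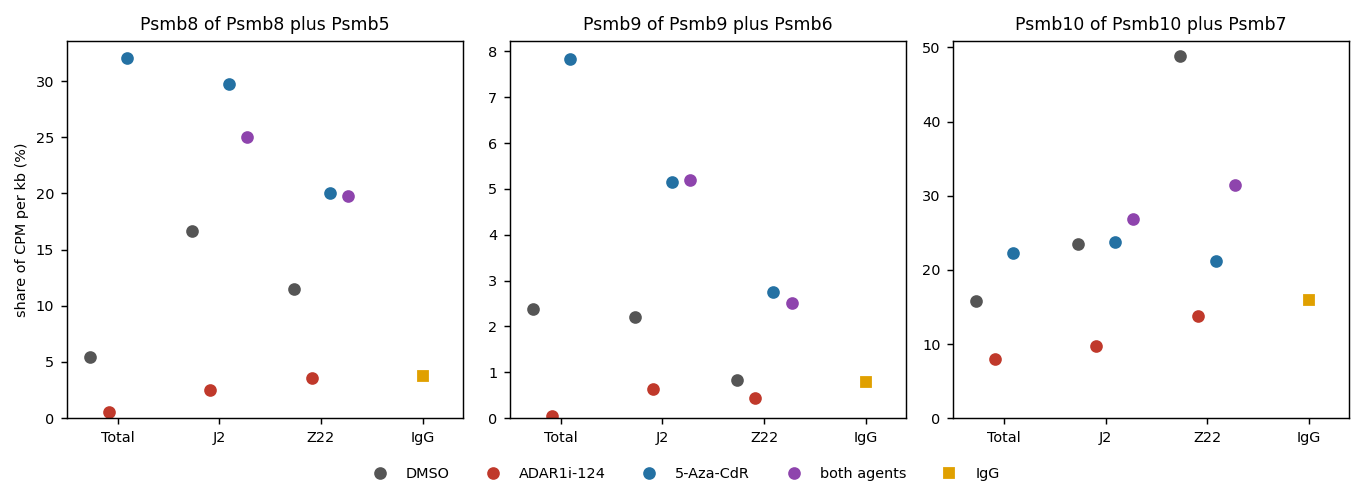
Share (%) of each immunoproteasome subunit in the sum of itself and its constitutive partner, in CPM per kb, 1 point per library and coloured by treatment. In each fraction the ADAR1i-124 point is the lowest for all 3 pairs.

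Few other proteasome genes were 2-fold different in total RNA. Of all genes 8.70% were at least 2-fold lower and 7.71% higher with ADAR1i-124, and 8.96% lower and 17.0% higher with 5-Aza-CdR. The constitutive catalytic subunits Psmb5, Psmb6 and Psmb7 had 0 of 3 past 2-fold in total RNA with either agent. Of 11 other subunits of the 20S core 0 were 2-fold different with ADAR1i-124 and 2, Psmb4 and Psma5, were lower by 2-fold or more with 5-Aza-CdR, against 8.96% of all genes. Among the Z22 libraries 10 of these 11 were at least 2-fold higher with ADAR1i-124 than with DMSO, where 42.9% of all genes were, and their median relative to all genes was 1.56 against -1.74 for the members. That pair holds the Z22 library of DMSO cells, and against it 10 of 11 were also at least 2-fold higher with 5-Aza-CdR and with both agents. Of 4 activator and assembly genes in total RNA 1 was at least 2-fold lower with ADAR1i-124, against 8.70% of all genes, and 0 were 2-fold different with 5-Aza-CdR. The lower gene was Psme2, a subunit of the interferon-inducible activator PA28, with 60.4 CPM in DMSO, 8.74 CPM in ADAR1i-124 and 46.5 CPM in 5-Aza-CdR. Psme3 (166 and 243 CPM) and Pomp (69.7 and 88.9 CPM) were higher with ADAR1i-124. Of 6 peptide loading and trimming genes the aminopeptidase Erap1 (105 and 45.0 CPM) and Tapbpl (7.23 and 2.90 CPM) were at least 2-fold lower with ADAR1i-124, and none was 2-fold different with 5-Aza-CdR. The chaperones Calr and Canx of the same list were within 2-fold in both.

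The other class I heavy chains were counted without a filter on low levels, on CPM plus 0.5, and 2 of the 15 had no count in total RNA with these treatments. In total RNA 7 of 15 were at least 2-fold lower with ADAR1i-124 and 0 higher, with a list median of -0.56, and 10 of 15 were at least 2-fold higher with 5-Aza-CdR, with a list median of 1.34. The shares of all genes given for the members in the same pairs cover only genes averaging 1 CPM or more. Of the chains past that filter 7 of 10 were at least 2-fold lower with ADAR1i-124, against 8.70% of all genes, with a median of -1.64. With 5-Aza-CdR 8 of 11 were at least 2-fold higher, against 17.0% of all genes, with a median of 1.90. H2-T23, the heavy chain of the nonclassical molecule Qa-1, had 61.8 CPM with DMSO, 6.58 CPM with ADAR1i-124 and 215 CPM with 5-Aza-CdR. H2-Q7 had 10.6, 9.42 and 271 CPM, and H2-Q6 had 2.70, 3.46 and 138 CPM. H2-T24 had 9.70 CPM with DMSO and no read with ADAR1i-124. In J2 11 of 15 were at least 2-fold lower with ADAR1i-124, with a list median of -1.64. Past the filter all 10 were, against 10.8% of all genes.

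Among 13 transcription factors known to act on class I promoters 3 were at least 2-fold lower with ADAR1i-124 in total RNA, against 8.70% of all genes, and 1, Rela (45.6 and 110 CPM), was at least 2-fold higher, against 7.71%. Those lower were the interferon signalling factors Stat2 (195 and 11.98 CPM), Irf9 (87.5 and 10.2 CPM) and Irf1 (47.1 and 13.1 CPM). With 5-Aza-CdR 0 of 13 were 2-fold different, Stat2 having 246 CPM. In J2 Stat2 and Irf9 were again at least 2-fold lower with ADAR1i-124, as 10.8% of all genes were. MHC class II genes were low in all 12 libraries, the highest level being 2.56 CPM, of H2-DMa, and their activator Ciita did not exceed 0.255 CPM. Cd74, the invariant chain, ranged from 0.131 to 2.43 CPM, and no folds are given at these levels.

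**Figure D5:**
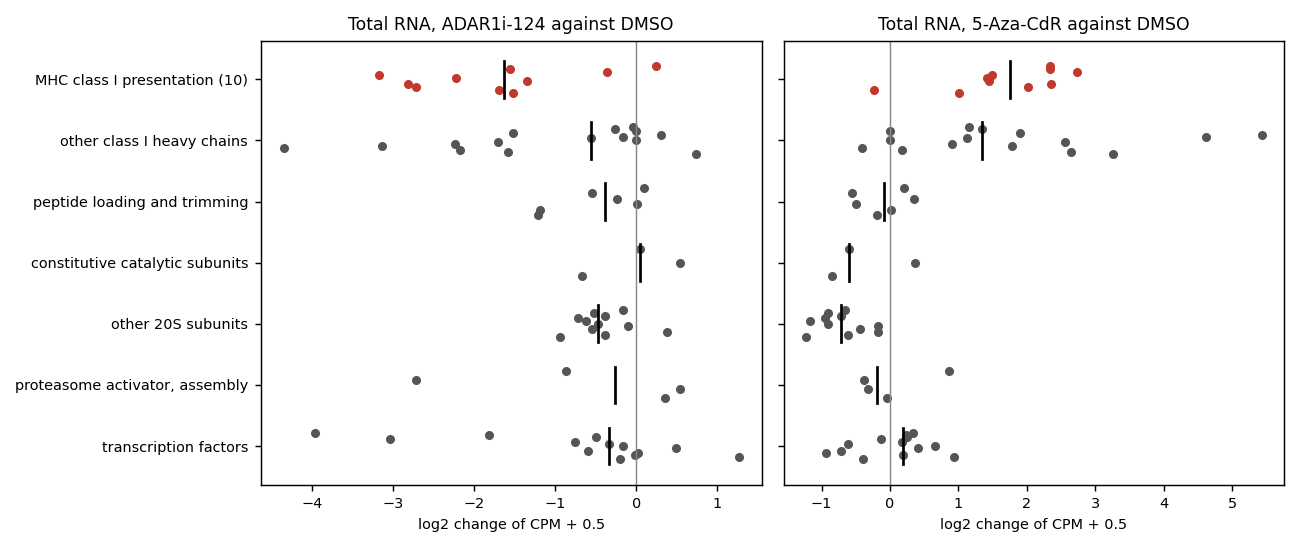
Log2 change of CPM plus 0.5 in total RNA with ADAR1i-124 (left) and 5-Aza-CdR (right) for the 10 presentation genes (red) and for 6 related gene lists (grey, all genes of each list), 1 point per gene, with the list median as a vertical bar. The presentation genes and the other class I heavy chains have medians of -1.63 and -0.56 on the left and of 1.76 and 1.34 on the right. The heavy chain medians include genes with few or no counts. Over the chains averaging 1 CPM or more they are -1.64 and 1.90. The 4 genes of the remaining lists furthest to the left are Stat2, Irf9, Psme2 and Irf1.

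Markers of other cells were also read, since leukocytes express class I genes strongly. Of 10 leukocyte markers only Cd68 stood out, with 8.29 CPM in total RNA from DMSO cells, 19.5 CPM with ADAR1i-124 and 75.4 CPM with 5-Aza-CdR, and the other 9 summed to between 0.196 and 3.39 CPM in the 12 libraries. In J2 Cd68 had 59.6 CPM with DMSO and 6.46 CPM with ADAR1i-124. In the 12 libraries the whole list summed to between 7.36 and 78.3 CPM. Ptprc, the pan-leukocyte marker, reached at most 1.22 CPM, and Nkg7 had no count. Of 3 endothelial markers Cdh5 had 3.70 CPM in total RNA from DMSO cells, 17.8 CPM with ADAR1i-124 and 81.1 CPM with 5-Aza-CdR, with Pecam1 at most 2.296 CPM. The part of these genes in the results was not tested. In bulk RNA fewer cells of a type and less RNA per cell cannot be told apart.

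The IgG precipitate gives the background of the RIP libraries. Its levels were 523 CPM for B2m, 144 CPM for H2-K1, 283 CPM for H2-D1, 25.9 CPM for Tap1 and 40.0 CPM for Nlrc5. Against it the median log2 ratio of the members was 1.27 in J2 from DMSO cells, 1.91 with 5-Aza-CdR and 2.11 with both agents, but -0.54 with ADAR1i-124 alone, where all 10 members were below IgG. In Z22 the medians were 0.37, 1.09 and 1.86 in the same order and -0.57 with ADAR1i-124 alone. The Z22 library of DMSO cells was itself low over all genes, with a median of -0.83 against IgG. Relative to all genes its member median was 1.195, above that with 5-Aza-CdR (0.91), so the order of these libraries turns with the scaling, while both agents (1.85) stayed highest and ADAR1i-124 alone (-0.52) lowest. Over the 4 libraries the middle value was 1.59 for J2 and 0.73 for Z22, or 1.57 and 1.05 relative to all genes. After ADAR1i-124 alone the member medians were thus below the IgG background in both precipitates, and what part of these ratios is the unstated treatment of the IgG cells cannot be told apart.

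Fractions could be tested with treatments as blocks, since total RNA had 3 libraries and each antibody 4. In edgeR's quasi-likelihood test with Benjamini-Hochberg adjustment over 15845 genes 0 members passed an adjusted p of 0.05 between Z22 and J2, and 0 of all genes did (0% higher and 0% lower), with 1 member and 13.9% of genes at an unadjusted p under 0.05. Between J2 and total RNA 0 members passed, against 0.252% of genes higher and 0.0252% lower in J2, and 2 members were under the unadjusted threshold, as were 13.4% of genes. Between Z22 and total RNA 0 members passed, against 0.568% higher and 0.126% lower in Z22, and 5 members were under the unadjusted threshold, as were 23.9% of genes. B2m had the lowest adjusted p, being lower in Z22 than in total RNA by a log2 change of -1.55 ± 0.36 (SE), edgeR adjusted p = 0.067. It was lower in all 3 treatments that both fractions have, with 121, 329 and 967 CPM in Z22 against 853, 1009 and 4331 CPM in total RNA. Psmb10 was higher by 1.297 ± 0.33 (SE), edgeR adjusted p = 0.0758.

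DESeq2's Wald test passed more genes than edgeR, 344, 542 and 1765 in the 3 comparisons in the same order against 0, 44 and 110. It called 0 members for Z22 against J2, where 2.55% of genes passed in either direction, 0 for J2 against total RNA (3.52% of genes) and 4 for Z22 against total RNA (11.0% of genes). These were B2m (log2 change -1.54, adjusted p = 0.00136), Psmb10 (1.303, adjusted p = 0.00705), Tap2 (1.43, adjusted p = 0.029) and Psmb8 (1.45, adjusted p = 0.0339). With edgeR and no filter on low counts the 3 comparisons called 1, 1 and 4 members, against 1.64%, 1.95% and 5.36% of genes. Without the DMSO libraries they called 0, 2 and 1, against 0.391%, 13.1% and 10.2% of genes. Of the DESeq2 calls the light chain was lower in the precipitate and the transporter and proteasome genes were higher.

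Across the 12 libraries most members varied together, which is a description only, since the fractions share treatments and the libraries differ in depth. H2-K1 had a Pearson correlation of 0.98 with the mean of the other members on the log2 scale, Psmb8 of 0.96 and Psmb9 of 0.94. B2m (0.56) and Psmb10 (0.70) followed the others least, and the lowest pair was B2m with Psmb10 (0.09). Among the 8880 genes averaging 10 CPM or more the 5 most like the mean of the members were Ifi213 (0.99), Zbp1 (0.98), H2-Q4 (0.98), Ccl5 (0.97) and H2-T23 (0.96). Zbp1, a sensor of Z-form nucleic acids, had 25.1 CPM with DMSO, 0.681 CPM with ADAR1i-124 and 111 CPM with 5-Aza-CdR in total RNA. Ccl5, a chemokine for T cells, had 37.3, 8.51 and 102 CPM.

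Few reads could be shared with other genes through identical sequence. Of the 100-base words of their annotated transcripts 0.957% in H2-K1 and 3.59% in H2-D1 also occurred in another gene, mostly in H2-Q10 and H2-Q1, and in the other members at most 0.0775% did. Tapbp overlaps Zbtb22 on the same strand, a gene with counts up to 45.8% of those of Tapbp in 1 library. Tap1 and Psmb9 overlap on opposite strands, and Tap1 had 5.02 to 32.8 times the counts of Psmb9 in the 12 libraries. The strand setting of the counting is not stated. In total RNA with ADAR1i-124, counts of 16880 genes had a Spearman correlation of 0.93 with the gene's own counts in DMSO. With the counts of the gene on the opposite strand it was 0.04. A share of Tap1 reads in the Psmb9 counts was not tested.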

How the data were processed

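Total RNA and RNA precipitated with J2, Z22 or IgG from Yumm1.7 cells was sequenced after ribosomal RNA depletion, precipitates following digestion with a single-strand-specific RNase. The authors aligned reads with STAR in snakePipes to mm10 and deposited raw counts per gene, 1 column per library; the counting tool and strand setting are not given in the sources used here. Samples were grouped by their treatment labels. Counts were divided by the library total to CPM, and log2 changes were taken of CPM + 0.5 for genes averaging 1 CPM or more in the pair compared. Ratios carry exact 95% binomial intervals and levels exact Poisson intervals, all for counting error only. A zero count allows up to 3 counts, which is 0.0868 to 0.367 CPM. Medians over the 10 genes carry an exact interval from their order. It describes the spread over genes that vary together, and neither counting error nor replicate spread. The binomial treatment of folds and the edgeR fit were also run on simulated data, with an outcome that is not given here.

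Fractions were compared with edgeR 4.0.16 (quasi-likelihood, TMM factors, treatment as a term) over all genes, with DESeq2 1.42.0 as the alternative. Libraries are separate labelled samples, but nothing says that they came from separate cultures, so these p-values measure the spread between libraries. Symbols came from GENCODE for 54495 of 54532 identifiers. The members, gene lists and tests were chosen with earlier results of these data known. All 10 members are named, and of the other lists at most 5 genes a comparison, those with the largest change, with further ones chosen after their values were seen (Psmb5 to Psmb7 as partners, Ptprc, Nkg7, Pecam1, Ciita and H2-DMa as markers). Comparisons against DMSO within a fraction share that library. Alternatives were other scalings, pseudocounts, filters and leaving out treatments. Of the transcription factor list 1 gene is not reported here. The total RNA library of both agents was left out of all comparisons.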

Additional observations from a re-analysis of the deposited data

Results flagged for a closer look

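For 3 genes the ADAR1i-124 step went one way in both precipitates without 5-Aza-CdR and the opposite way with it, relative to the median of all genes, and this difference was not tested. Tap2 stepped down without 5-Aza-CdR and up with it, the steps differing by 2.45 on the log2 scale in J2 and by 3.61 in Z22. For Tapbp the differences were 2.34 in J2 and 3.22 in Z22. The steps of Tap2 and Tapbp with 5-Aza-CdR were small in J2 (0.18 and 0.21) and larger in Z22 (0.89 and 1.36). For Nlrc5 the differences were 2.33 in J2 and 2.71 in Z22, although its step with 5-Aza-CdR was small (0.08 in J2 and 0.14 in Z22). Without taking off the median of all genes that step was -0.04 in Z22, the same sign as without 5-Aza-CdR, so for Nlrc5 the opposite direction in Z22 rests on the subtraction. The all-gene median of these values was taken over genes past the filter in all 4 libraries of an antibody.

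In the total RNA library of both agents, which no comparison used, Psmb9 was at 235 CPM, above its level in all 12 other libraries. That library's counts follow the opposite strand, on which Tap1 lies, and its Psmb9 value was therefore not read as a level of Psmb9.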

How the results depend on the processing

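The medians of the 10 genes were recomputed with edgeR's TMM factors, DESeq2's size factors and totals that left out the 20 most abundant genes. A pseudocount of 0.1 or 2 CPM and a filter on the genes were also tried. Of the medians between treatments only that of 5-Aza-CdR against DMSO in Z22 changed sign. The scaling mattered in Z22 against DMSO. The 5-Aza-CdR median there was 0.68 with totals, -0.27 with TMM factors and -0.38 with DESeq2's size factors, and the ADAR1i-124 median was -1.79 with DESeq2's size factors. The median of all genes in those pairs was 1.06 and 0.81 with totals and 0.03 and -0.02 with size factors. The ADAR1i-124 count of members at least 2-fold lower in Z22 was 5 with totals and 8 with size factors. In J2 with both agents against DMSO the count at least 2-fold higher was 1 with totals and 0 with TMM factors. With 5-Aza-CdR against DMSO it was 9 with totals and 8 with TMM factors in total RNA, where Nlrc5 was lost (log2 change 1.01 and 0.95), and 3 and 2 in J2, where H2-K1 was lost (1.03 and 0.96). In Z22 with both agents it was 6 and 4 against DMSO and 1 and 2 against 5-Aza-CdR. Psmb10 in J2 with both agents against ADAR1i-124 was at 0.996 with totals and 1.03 with a pseudocount of 0.1 CPM. Relative to all genes, an alternative chosen after seeing the data, the middle ratio to IgG was 1.57 in J2 and 1.05 in Z22. The test between fractions called more members and more genes with no filter on low counts, 1 member (553 genes against 0) for Z22 against J2, 1 (659 against 44) for J2 against total RNA and 4 (1809 against 110) for Z22 against total RNA. DESeq2's Wald test called 4 members (1765 genes) in the last of these. Leaving out the libraries of a treatment gave 0 for Z22 against J2, 0 to 2 for J2 against total RNA and 0 to 1 for Z22 against total RNA, the higher values without DMSO, where 64, 2139 and 1664 genes passed. The cause of these shifts was not tested. The fits between fractions pair the libraries by treatment, and without the treatment term 0 members passed in any of the 3 comparisons, with 1, 28 and 51 genes passing.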
